A study of Mus musculus with 20 samples.

Results

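The 9 genes described here move sodium, chloride, bicarbonate, and protons across the epithelium of the large intestine. They are Scnn1a, Scnn1b, and Scnn1g, the subunits of the epithelial sodium channel (ENaC); Slc9a2 and Slc9a3, the apical sodium/proton exchangers NHE2 and NHE3; Slc26a3, the apical chloride/bicarbonate exchanger DRA; Slc12a2, the basolateral sodium-potassium-chloride cotransporter NKCC1; Cftr, the apical chloride and bicarbonate channel; and Atp12a, the colonic proton/potassium pump. They were chosen by name, by matching the gene identifiers of the cecum count table to these symbols, and all 9 were found among the 19887 genes of the table. Of these, 8 passed the filter on low counts, and Atp12a did not. The rule used only the names, although the genes were proposed with earlier results of these data known.

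Absorption in the cecum and colon runs through 2 apical routes. In the electroneutral route a sodium/proton exchanger works side by side with Slc26a3, so that sodium and chloride enter the cell while protons and bicarbonate leave it. In the electrogenic route sodium enters through ENaC, whose subunits are needed together for full current and whose beta and gamma subunits are the ones known to be induced by aldosterone in the colon. Secretion runs the other way, with chloride loaded by Slc12a2 and released through Cftr. Short-chain fatty acids made by fermentation of starch are absorbed by the same surface cells.

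RNA was measured by RNASeq in sections of cecum from 20 C57BL/6 mice, 5 on each of 4 diets. All mice ate the total Western diet (TWD), a rodent diet built on American nutrient intakes, for 6 weeks, and then the TWD with 0, 2, 5, or 10% raw potato starch (RPS, a starch of which much escapes digestion) for 3 weeks, so the TWD is common to all groups and the 0% RPS group is the control. The mice of all groups were weanlings when they were put on the TWD, and no mutation or transgene is named in the labels. The mice of each diet are numbered here from 1 to 5. The tissue was bulk, so fewer cells of a type and less RNA per cell cannot be told apart for any gene below.

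Total counts per mouse were 14967798 to 42687283, and 3 counts, taken as the lowest level that can be shown, were 0.190 CPM (counts scaled to library size with the TMM method of edgeR) in the smallest scaled library. That floor covers counting error only. Epithelial markers were abundant in every mouse, with a summed level of the 8 genes from 9417 to 14480 CPM. Smooth muscle markers (5 genes) were also present, at 1891 to 4583 CPM in mice fed 0% RPS, 2589.9 to 4523 CPM with 2%, 3302 to 8073 CPM with 5%, and 3093 to 5499.6 CPM with 10%. B cell markers (5 genes) summed to 4.68 to 178 CPM with 0%, 3.10 to 243 CPM with 2%, 6.996 to 109 CPM with 5%, and 12.9 to 239 CPM with 10% RPS. The share of counts on mitochondrial genes was above 13% in 3 mice, which were mouse 5 on 0%, mouse 3 on 2%, and mouse 4 on 5% RPS, and was 8.998 to 10.3% in the 5 mice on 10% RPS.

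Among the tested members, 1 passed the threshold with 10% against 0% RPS. Slc26a3 rose 1.53-fold, and no member passed as lower in the edgeR quasi-likelihood test, while Scnn1g, Slc9a3, and Scnn1b had estimates 4.16-, 2.07-, and 2.59-fold below the control with unadjusted p under 0.05. DESeq2, the tool named in the study's methods, called the same rise and also called Scnn1g and Slc9a3 lower. Scnn1a, Slc9a2, Slc12a2, and Cftr had estimates within 1.28-fold of the control. A gene passed where its p, adjusted by the Benjamini-Hochberg method over all 15348 tested genes, was at most 0.05 and its fold change was at least 1.5 (no fold limit was set for the trend). Over all tested genes 0.547% passed as higher and 0.495% as lower with edgeR, and 1.43 and 1.04% with DESeq2. At an unadjusted p under 0.05, 1 member was higher and 3 were lower with edgeR, beside 19.5% of all tested genes in either direction.

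The genes lie on 7 chromosomes of GRCm39. Scnn1g (chr7:121333545-121367755) and Scnn1b (chr7:121463946-121517737) are neighbors on the same strand, 96190 bp apart. Scnn1a lies at chr6:125297622-125321906, Cftr at chr6:18170686-18322767, Slc9a2 at chr1:40719734-40808433, Slc9a3 at chr13:74269360-74317561, Slc26a3 at chr12:31440870-31523916, and Atp12a at chr14:56602262-56626010. All of these, and Slc12a2, are transcribed from the plus strand. Cog7 overlaps Scnn1b on the opposite strand without sharing an exon, and Exoc3 shares 380 exon bases with Slc9a3 on the opposite strand. The strand setting of the counting is not given in the sources used here, so a part of the counts of Slc9a3 could come from Exoc3. Exoc3 had a mean of 64.3 CPM and a log2 fold change of -0.16 with 10% RPS (edgeR adjusted p = 0.172). Other annotated genes that overlap members are not in the count table. Among them are the processed pseudogenes Gm9359 and Gm15595, on the same strand as Slc26a3 and Cftr, and their part in the counts was not tested.

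The promoters of the 3 genes with the lowest estimates and of Slc26a3 are printed because these 4 had the lowest p among the members with 10% RPS. RefSeq windows of 300 bases (250 before to 50 after the annotated start) were found for 5 of the 9 members on GRCm38.p6, a build other than that of the counts, and not for Scnn1a, Slc9a2, Slc12a2, and Atp12a. Each is written 5′ to 3′ on the plus strand, which is the strand of the gene, and capitals mark a match on either strand to any of 5 motifs. The GC box was searched as GGGCGG. The box at which many promoters are bound upstream of the start was searched as CCAAT. The box that sets the start in many tissue-specific promoters was searched as TATAAA. The steroid receptor half-site was searched as TGTTCT. The site of the intestinal factor CDX2 was searched as TTTATG. No marked matches overlap in these 4 windows.
Scnn1b: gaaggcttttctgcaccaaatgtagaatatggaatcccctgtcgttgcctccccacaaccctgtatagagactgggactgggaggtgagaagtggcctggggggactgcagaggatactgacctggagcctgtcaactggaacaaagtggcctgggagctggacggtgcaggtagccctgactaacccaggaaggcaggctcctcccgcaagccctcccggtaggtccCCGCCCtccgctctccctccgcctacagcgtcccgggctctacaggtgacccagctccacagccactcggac
Scnn1g: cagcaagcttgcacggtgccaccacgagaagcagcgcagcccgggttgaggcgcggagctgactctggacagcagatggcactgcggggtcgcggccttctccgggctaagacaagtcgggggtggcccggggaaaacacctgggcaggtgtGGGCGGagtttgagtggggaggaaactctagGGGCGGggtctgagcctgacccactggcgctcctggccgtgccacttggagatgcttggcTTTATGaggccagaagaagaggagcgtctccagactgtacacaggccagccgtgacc
Slc9a3: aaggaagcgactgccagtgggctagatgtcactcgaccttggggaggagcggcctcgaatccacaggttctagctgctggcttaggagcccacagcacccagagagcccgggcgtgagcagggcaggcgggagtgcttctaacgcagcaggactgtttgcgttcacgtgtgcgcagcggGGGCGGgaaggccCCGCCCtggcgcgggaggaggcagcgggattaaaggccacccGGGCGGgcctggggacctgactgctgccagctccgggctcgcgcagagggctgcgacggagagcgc
Slc26a3: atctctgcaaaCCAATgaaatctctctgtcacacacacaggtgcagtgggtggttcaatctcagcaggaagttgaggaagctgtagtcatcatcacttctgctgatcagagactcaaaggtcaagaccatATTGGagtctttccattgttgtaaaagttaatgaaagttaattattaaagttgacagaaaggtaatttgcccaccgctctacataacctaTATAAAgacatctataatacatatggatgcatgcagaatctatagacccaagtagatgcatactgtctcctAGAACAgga

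The window of Scnn1b, chr7:121864788-121865087, holds 1 GC box. That of Scnn1g, chr7:121734229-121734528, holds 2 GC boxes and 1 TTTATG. That of Slc9a3, chr13:74121163-74121462, holds 3 GC boxes. That of Slc26a3, chr12:31437969-31438268, differs in composition, with 1 match to TATAAA whose first base is at position -30 from the annotated start, 2 CCAAT matches, 1 steroid receptor half-site, and no GC box. Of all 32851 promoter windows in the table, 35.7% hold a GC box, 37.4% a CCAAT match, 13.6% a TATAAA, 18.97% a TGTTCT, and 11.85% a TTTATG. The G and C content was 61.7% for Scnn1b, 64.7% for Scnn1g, 68.7% for Slc9a3, and 39.3% for Slc26a3, beside a median of 52.7% over all windows. These matches describe the letters only.

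The members spanned a wide range of levels. As RPKM (CPM divided by gene length in kilobases, with the summed exons of all transcripts as length), Slc26a3 had a mean of 254 over the 20 mice, Slc9a2 of 62.5, Slc9a3 of 35.96, Cftr of 16.6, Scnn1a of 14.9, Slc12a2 of 10.7, Scnn1g of 0.596, Scnn1b of 0.275, and Atp12a of 0.031 RPKM. Slc26a3 was above Slc9a2 in 20 of 20 mice and their ranges did not overlap, and the same held for Slc12a2 above Scnn1g. Cftr was above Scnn1a in 16 of 20 mice, and Scnn1a above Slc12a2 in 16 of 20 mice, with overlapping ranges, so these 3 neighbors in the order are within the spread of the mice. Slc9a2 was above Slc9a3 in 20 of 20 mice and Slc9a3 above Cftr in 19 of 20, though their ranges overlapped. Scnn1g was above Scnn1b in 16 of 20 mice. The order of the sodium/proton exchangers rests on the length used, since with the length of the canonical transcript Slc9a3 (106 RPKM) was above Slc9a2 (88.8 RPKM).

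**Figure D1:**
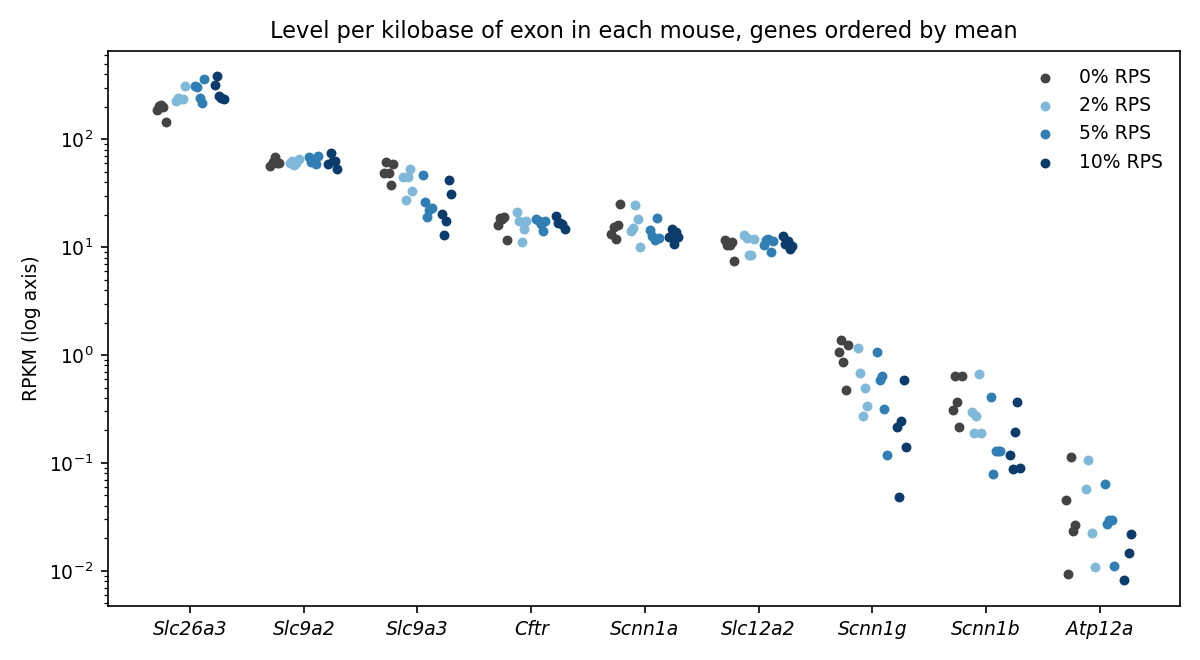
Level of each gene in each mouse as RPKM (log axis, length of all exons), with genes ordered by their mean and points colored by diet; values of 0 (3 mice for Atp12a) are not drawn. Slc26a3 lies highest at a mean of 254 RPKM, and the ENaC subunits Scnn1g (0.596) and Scnn1b (0.275) lie far below Scnn1a (14.9).

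Among the ENaC subunits, Scnn1a encodes the alpha subunit, which forms the pore with the others. Its level was 54.4, 63.7, 49.0, 66.8, and 104 CPM in the 5 mice fed 0% RPS and 51.6, 60.4, 44.6, 57.0, and 50.9 CPM in the 5 mice fed 10% RPS. The groups overlapped, with mouse 5 on 0% RPS the highest of all. In the edgeR test the log2 fold change was -0.35 (SE 0.21, adjusted p = 0.365), with a 95% interval of -0.79 to 0.09. The means were 67.5 ± 21.4 (SD, n = 5), 68.1 ± 22.6, 57.6 ± 12.0, and 52.9 ± 6.09 CPM with 0, 2, 5, and 10% RPS.

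Scnn1g, the gamma subunit, had a coefficient of variation of 68.4% over the 20 mice, beside 68.2% for Scnn1b, the highest of the tested members. It had 3.39, 4.46, 2.78, 1.51, and 3.93 CPM with 0% RPS, from 45 to 137 counts a mouse. With 2% RPS it had 3.75, 2.19, 0.869, 1.58, and 1.07 CPM, and with 5% RPS 3.40, 1.87, 2.03, 1.01, and 0.377 CPM. With 10% RPS it had 0.697, 0.155, 0.790, 1.88, and 0.450 CPM, from 6 to 40 counts. Mice 1, 2, 3, and 5 on 10% RPS lay below every control mouse, and mouse 4 on 10% RPS lay above mouse 4 on 0%. The log2 fold change with 10% RPS was -2.06 (SE 0.57, edgeR adjusted p = 0.0644, unadjusted p = 0.00167), and the difference of mean log2 CPM was -2.18 (two-sided exact permutation test, p = 0.0159, where 0.00794 is the smallest p that 5 against 5 mice allow). DESeq2's Wald test gave -2.04 with an adjusted p of 0.00659. Over the 10 fits that leave out 1 mouse each the edgeR adjusted p ran from 0.0191 to 0.168 and the log2 fold change from -2.62 to -1.77, and 1 fit passed, that without mouse 4 on 10% RPS.

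Scnn1b, the beta subunit, was scarcer still. It had 0.911, 1.87, 1.09, 0.638, and 1.86 CPM with 0% RPS and 0.349, 0.258, 0.569, 1.08, and 0.263 CPM with 10% RPS, the latter from 7 to 23 counts a mouse. Again mice 1, 2, 3, and 5 on 10% RPS lay below all control mice, and mouse 4 did not. With 10% RPS it was estimated at -1.37 on the log2 scale (SE 0.49, edgeR adjusted p = 0.138, unadjusted p = 0.0114), the exact permutation p was 0.0317 (n = 5 per group), and the DESeq2 adjusted p was 0.0794. With 5% RPS the values were 1.21, 0.230, 0.381, 0.378, and 0.377 CPM, so that mouse 1 stood apart from the others of its diet, and the log2 fold change was -1.26 (SE 0.49, edgeR adjusted p = 0.242). Over the 10 fits that leave out 1 mouse each it ran from -1.91 to -1.06 (edgeR adjusted p of 0.0657 to 0.459), and 0 fits passed.

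The makeup of the ENaC transcripts was as follows. Per length, Scnn1a made up 91.7% ± 2.88 (SD, n = 5) of the 3 subunits' RPKM with 0% RPS, 94.4% ± 2.60 with 2%, 95.1% ± 2.99 with 5%, and 96.8% ± 2.16 with 10%. Scnn1g made up 5.84% ± 2.13 with 0% and 1.87% ± 1.37 with 10% RPS, and Scnn1b 2.44% ± 0.869 and 1.29% ± 0.804. The share of Scnn1g ran from 2.80 to 7.97% in control mice and from 0.327 to 3.99% with 10% RPS, so the groups overlapped. The shares were not tested.

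Of the sodium/proton exchangers, Slc9a3 (NHE3) is the one that carries most of the electroneutral sodium uptake of the gut. It had 375, 468, 373, 289.6, and 446 CPM with 0% RPS. It had 343, 207, 341, 402, and 255 CPM with 2% RPS and 358, 202, 146, 169, and 176 CPM with 5% RPS. It had 155, 98.5, 134, 318, and 240 CPM with 10% RPS. As for Scnn1b and Scnn1g, mouse 4 was the only one of the 10% group above the lowest control mouse, and mouse 1 was the highest of the 5% group. On the log2 scale the estimate was -1.05 with 10% RPS (SE 0.29, edgeR adjusted p = 0.0671, unadjusted p = 0.00188, exact permutation p = 0.0159 with n = 5 per group). It was -0.89 with 5% RPS (SE 0.29, edgeR adjusted p = 0.156) and -0.34 with 2% RPS (SE 0.29, edgeR adjusted p = 0.940). DESeq2 gave adjusted p of 0.00659 with 10% and 0.0446 with 5% RPS.

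Slc9a2 (NHE2), the other apical exchanger, had similar means over the diets. Its mean was 441 ± 31.2 CPM (SD, n = 5) with 0%, 438 ± 19.9 with 2%, 460.0 ± 31.6 with 5%, and 445 ± 55.8 with 10% RPS. It was the least variable member, with a coefficient of variation of 7.87% over the 20 mice, and 7.49% of tested genes had a smaller SD of log2 CPM. The log2 fold change with 10% RPS was 0.01 (SE 0.08, edgeR adjusted p = 0.954), with a 95% interval of -0.16 to 0.19.

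Slc26a3 (DRA), the chloride/bicarbonate exchanger that pairs with these exchangers, was among the most abundant genes of the cecum, with 99.7% of tested genes at a lower mean CPM. It had 1199, 1287, 1337, 1271, and 916 CPM with 0% RPS. It had 1439, 1539, 1503, 1518, and 1998 CPM with 2% RPS, 1964, 1964, 1520.3, 1379.95, and 2304 CPM with 5% RPS, and 2048, 2459, 1615, 1528, and 1516 CPM with 10% RPS. Every mouse fed RPS was above every control mouse at each of the 3 doses. Groups without overlap in this direction were seen for 1.68% of tested genes with 10%, 1.53% with 5%, and 0.417% with 2% RPS, and in the lower direction, where no member was found, for 3.2, 2.04, and 0.671%.

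The rise of Slc26a3 with 10% RPS was 0.61 on the log2 scale (SE 0.16, edgeR adjusted p = 0.0487, 95% interval 0.28 to 0.94), and the exact permutation p was 0.00794 (n = 5 per group), the smallest the design allows. The edgeR call sat at the edge of the threshold. It was lost without any single one of mice 1, 3, 4, or 5 on 0% RPS or mice 1, 2, 3, or 5 on 10% RPS, with adjusted p of 0.0284 to 0.136 over the 10 mice left out in turn, while the log2 fold change stayed between 0.48 and 0.68. DESeq2 gave an adjusted p of 0.00678. The estimate was as large with 5% RPS, at 0.60 (SE 0.16, edgeR adjusted p = 0.0839, DESeq2 adjusted p = 0.0136), and was 0.41 with 2% RPS (SE 0.16, edgeR adjusted p = 0.815). The difference between 10 and 5% RPS was 0.01 (95% interval -0.32 to 0.33).

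**Figure D2:**
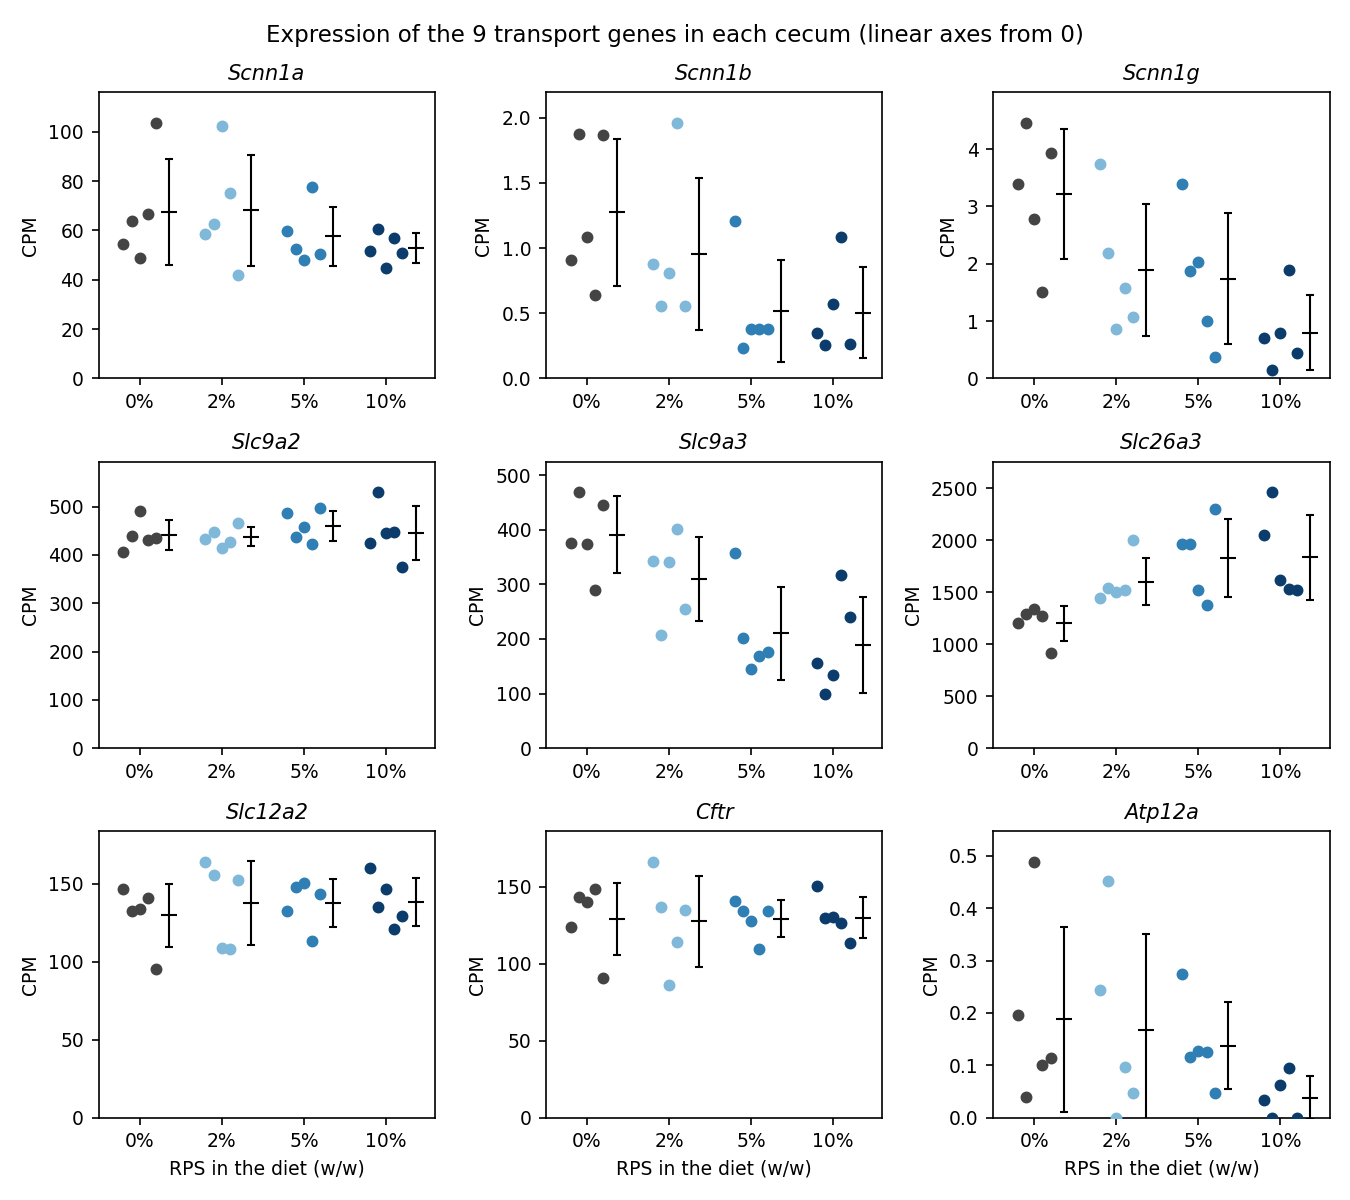
CPM of the 9 genes in each mouse (points, mice 1 to 5 from left to right within a diet), with the mean and SD of the 5 mice beside them, on linear axes that start at 0. All mice fed RPS lie above the control mice for Slc26a3, and mouse 4 on 10% RPS is the highest of its diet for Scnn1b (1.08 CPM), Scnn1g (1.88 CPM), and Slc9a3 (318 CPM).

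The secretory genes had similar means over the diets. Slc12a2, which brings chloride into the cell from the blood side, had a mean of 129.9 ± 20.2 CPM (SD, n = 5) with 0%, 138 ± 27.0 with 2%, 138 ± 15.1 with 5%, and 138 ± 15.4 with 10% RPS. The 10% RPS group differed from the control by 0.09 on the log2 scale (SE 0.13, edgeR adjusted p = 0.750), with a 95% interval of -0.18 to 0.36. Cftr, through which the chloride leaves, had means of 129 ± 23.4, 128 ± 29.7, 129 ± 11.9, and 130.1 ± 13.3 CPM over the same diets. Its log2 fold change was 0.01 (SE 0.14, edgeR adjusted p = 0.988), with a 95% interval of -0.29 to 0.31. The single lowest value of each gene was in a mouse with a high mitochondrial share. Mouse 5 on 0% RPS had 95.2 CPM of Slc12a2 and 90.9 CPM of Cftr, and mouse 3 on 2% RPS had 86.2 CPM of Cftr, the lowest of the 20 mice. The next lowest Slc12a2, 108.4 CPM, was in mouse 4 on 2% RPS, whose mitochondrial share was 9.15%.

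Atp12a, which exchanges protons for potassium at the surface of the distal colon, was close to the floor. It had 6, 1, 13, 3, and 4 counts in the mice fed 0% RPS, 5, 13, 0, 3, and 2 with 2%, 10, 4, 2, 4, and 1 with 5%, and 1, 0, 2, 2, and 0 with 10% RPS. Summed over the 5 mice of a diet these were 27 counts (exact Poisson 95% interval 17.8 to 39.3), 23 (14.6 to 34.5), 21 (12.999 to 32.1), and 5 (1.62 to 11.7), which cover counting error only. No mouse on 10% RPS had more than 3 counts, nor did 2, 3, and 2 of the mice on 0, 2, and 5% RPS. The gene is below the filter of the edgeR fit and was not tested there. DESeq2's likelihood ratio test of any difference between the diets gave an adjusted p of 0.578 for Atp12a.

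**Figure D3:**
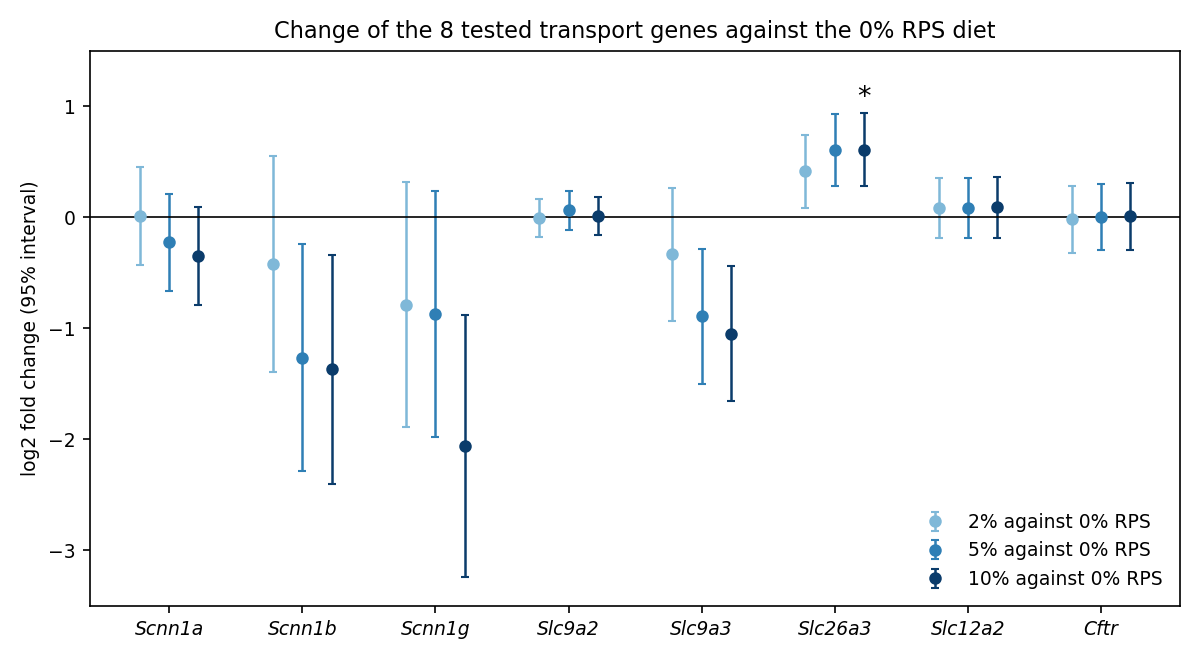
Log2 fold change of the 8 tested genes with 2, 5, and 10% RPS against the same 5 control mice (points, edgeR) with 95% intervals (bars); the asterisk marks the comparison past the threshold. Slc26a3 lies above 0 at each dose (0.61 with 10% RPS), Scnn1g (-2.06), Scnn1b (-1.37), and Slc9a3 (-1.05) lie lowest with 10% RPS, and the intervals of Slc9a2, Slc12a2, and Cftr span 0.

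The lower doses gave fewer calls of members. With 5% against 0% RPS 0 members passed with edgeR, beside 0.0977% of tested genes higher and 0.0977% lower, and 1 member was higher (Slc26a3) and 2 lower (Slc9a3 and Scnn1b) at an unadjusted p under 0.05, beside 13.3% in either direction. DESeq2 called Slc26a3 higher and Slc9a3 lower at this dose, beside 0.849 and 0.562% of genes. With 2% RPS 0 members and 0% of tested genes passed in either direction with edgeR. DESeq2 called 0 members at this dose, beside 0.0054% of genes higher and 0.0216% lower. Slc26a3 alone had an unadjusted edgeR p under 0.05 (0.0155), beside 5.77% of tested genes. These 3 comparisons share the control mice.

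In the linear trend over the percentage of RPS 0 members passed with edgeR, beside 0.378% of tested genes higher and 0.73% lower. At an unadjusted p under 0.05, 1 member was higher and 3 were lower, beside 18.8%. The slopes per percent of RPS were -0.19 for Scnn1g (edgeR adjusted p = 0.0684), -0.14 for Scnn1b (edgeR adjusted p = 0.106), -0.10 for Slc9a3 (edgeR adjusted p = 0.0594), and 0.053 for Slc26a3 (edgeR adjusted p = 0.0988) on the log2 scale. DESeq2 called Slc26a3 higher and Scnn1g and Slc9a3 lower, beside 2.02 and 2.85% of genes. Without mouse 4 on 10% RPS edgeR called 3 members lower and 1 higher in the trend, beside 2.08% of tested genes lower and 1.56% higher in that fit.

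Between the RPS diets no member passed. For 10 against 5%, 5 against 2%, and 10 against 2% RPS 0 members and 0% of tested genes passed with edgeR. DESeq2 called 0 members, beside at most 0.0054% of genes in either direction. At an unadjusted edgeR p under 0.05 there was 1 member for 10 against 5% RPS (Scnn1g, log2 fold change -1.19), 0 for 5 against 2%, and 2, Scnn1g and Slc9a3, both lower, for 10 against 2%, beside 2.79, 3.39, and 4.69% of tested genes. A test of any difference between the 4 diets called 0 members with edgeR, beside 0.0912% of tested genes, and 4 members had an unadjusted p under 0.05, beside 11.1%. DESeq2's likelihood ratio test called 2 members, Slc9a3 (adjusted p = 0.0143) and Slc26a3 (adjusted p = 0.0188), beside 2.96% of genes.

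The members varied together in 2 groups. Over the 20 mice, 9 of the 28 pairs of tested members had a correlation of log2 CPM past an adjusted p of 0.05 (100000 permutations, Benjamini-Hochberg over the 28 pairs). The first group was Scnn1b, Scnn1g, and Slc9a3. Scnn1b and Slc9a3 had r = 0.85 (rho = 0.86, permutation test, adjusted p = 0.00042 for r and 0.00028 for rho), and r was 0.82 without the 2 mice farthest from the median of Scnn1b and 0.72 in deviations from the diet means. Scnn1g and Slc9a3 had r = 0.74 (rho = 0.73, permutation test, adjusted p = 0.00245 and 0.00607), with 0.62 without 2 mice and 0.57 within diets. Scnn1b and Scnn1g had r = 0.70 (rho = 0.71, permutation test, adjusted p = 0.0037 and 0.00607), with 0.71 without 2 mice and 0.57 within diets. Of these 3 pairs, Scnn1b and Slc9a3 passed within diets (adjusted p = 0.0190), while Scnn1g and Slc9a3 (0.104) and Scnn1b and Scnn1g (0.0913) did not.

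All 3 were negatively correlated with Slc26a3 over the 20 mice. The r was -0.66 for Scnn1g (rho = -0.58, permutation test, adjusted p = 0.00712 and 0.0332), -0.64 for Slc9a3 (rho = -0.66, adjusted p = 0.00948 and 0.0126), and -0.60 for Scnn1b (rho = -0.56, adjusted p = 0.0166 and 0.0401). Without the 2 farthest mice these were -0.44, -0.56, and -0.62, and the first and second no longer passed (permutation test, adjusted p = 0.178, 0.0570, and 0.0388). Within diets they were -0.47, -0.32, and -0.30, and none of the 3 passed there.

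The second group was Slc12a2 and Cftr, with r = 0.83 (rho = 0.66, permutation test, adjusted p = 0.00028 and 0.0126), 0.77 without 2 mice, and 0.84 within diets. Scnn1a ran against both, with r = -0.78 for Slc12a2 (rho = -0.58, adjusted p = 0.000933 and 0.0332) and -0.68 for Cftr (rho = -0.29, adjusted p = 0.00712 and 0.331). The relation of Scnn1a and Cftr rests on a few mice, since r was -0.20 without the 2 mice farthest from the median of Scnn1a and 0.03 without the 3 mice whose mitochondrial share was above 13%. Without those 3 mice r was -0.47 for Scnn1a and Slc12a2 (adjusted p = 0.137) and 0.62 for Slc12a2 and Cftr (adjusted p = 0.0334). Over all 20 mice the mitochondrial share itself had r = -0.67 with Cftr, -0.52 with Slc12a2, and 0.55 with Scnn1a. The part of RNA quality in these relations was not tested.

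**Figure D4:**
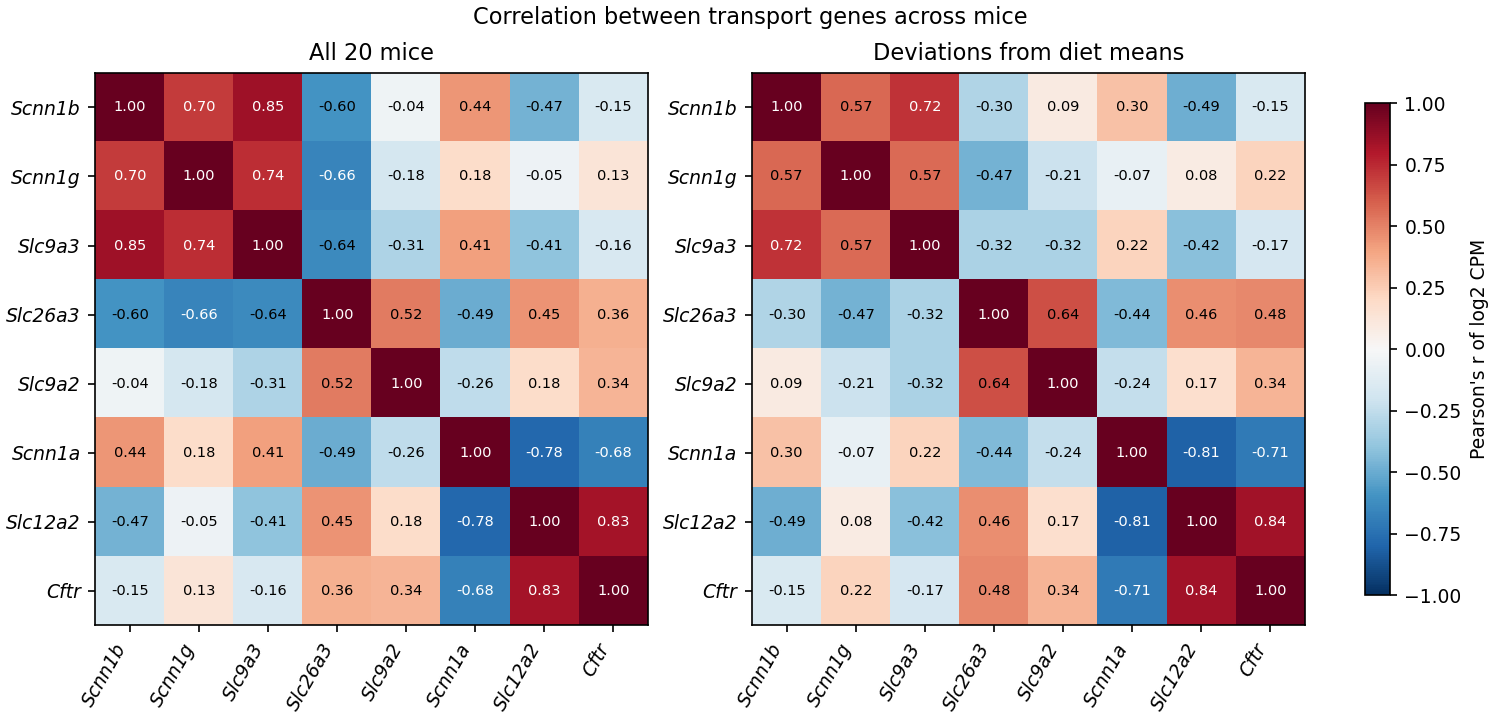
Pearson's r of log2 CPM for the 28 pairs of tested genes over all 20 mice (left) and for deviations from the diet means (right). Scnn1b, Scnn1g, and Slc9a3 form 1 block (0.70 to 0.85 on the left, 0.57 to 0.72 on the right), Slc12a2 and Cftr another (0.83 and 0.84), and the negative values with Slc26a3 are weaker on the right.

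The values of marker lists of other cells are given beside these results. With 10% against 0% RPS the 8 epithelial markers had a median log2 fold change of -0.16, and 0 of 8 passed (edgeR; 3 lower at an unadjusted p under 0.05; 0 with DESeq2), beside a median of 0.004 over all tested genes. The 5 smooth muscle markers had a median of 0.86, with 1 past the threshold (Actg2, log2 fold change 1.28, edgeR adjusted p = 0.0358), and 2 with DESeq2. The 5 fibroblast markers had a median of 0.40 with 0 past (3 higher at an unadjusted p under 0.05, 0 with DESeq2), and the 5 goblet markers -0.53 with 0 past (3 lower at an unadjusted p under 0.05, 0 with DESeq2). The 5 B cell markers had a median of 1.90 with 0 past (0 at an unadjusted p under 0.05, 0 with DESeq2). The 6 markers of surface colonocytes, the cells that hold Slc9a3, Slc26a3, and ENaC, had a median of -0.03 with 0 past (1 higher and 2 lower at an unadjusted p under 0.05, 0 with DESeq2). Their summed level had means of 34931, 31586.5, 28749, and 27820 CPM with 0, 2, 5, and 10% RPS. It ran from 32983 to 37509 CPM with 0% and from 22769 to 36291 CPM with 10% RPS. Over the 20 mice it had r = 0.52 with Slc9a3, 0.52 with Scnn1b, 0.27 with Scnn1g, and -0.24 with Slc26a3. Within diets these were 0.099, 0.19, -0.25, and 0.39. DESeq2 called Aqp8 of this list lower with 5% RPS and Car1 lower in the trend. The 5 ileal enterocyte markers had a median of -0.85, with 1 past the threshold as lower (Apoa4, log2 fold change -3.27, edgeR adjusted p = 0.0140), while Slc10a2, also on this list, was at 0.90 (edgeR adjusted p = 0.0641) and was called higher by DESeq2. Their summed level was 1513 to 2094 CPM with 0% and 1120.5 to 2017 CPM with 10% RPS, and had r = 0.20 with Slc26a3 over the 20 mice and 0.63 within diets. Of the acinar markers 1 of 4 was in the table, at 0 to 0.035 CPM.

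The summed smooth muscle markers had r = -0.73 with Slc9a3, -0.57 with Scnn1b, -0.55 with Scnn1g, and 0.36 with Slc26a3 over the 20 mice, and -0.53, -0.26, -0.39, and -0.18 within diets. With the smooth muscle markers as a covariate, chosen after the values were seen, the log2 fold changes with 10% RPS were -0.62 for Slc9a3 (edgeR adjusted p = 0.233), -0.89 for Scnn1b (edgeR adjusted p = 0.359), -1.44 for Scnn1g (edgeR adjusted p = 0.211), and 0.67 for Slc26a3 (edgeR adjusted p = 0.149). With the epithelial markers as a covariate they were -0.98, -1.18, -2.18, and 0.56, with edgeR adjusted p of 0.129 to 0.306, and the call of Slc26a3 was lost in both fits. The part of these cells in the results was not tested further. Without the 3 mice with a high mitochondrial share Slc26a3 was 0.54 higher on the log2 scale (edgeR adjusted p = 0.0407), below the 1.5-fold limit.

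The genes whose log2 CPM followed a member most closely over the 20 mice were taken as the 3 with the highest Pearson's r among the other tested genes, and r is given as a description. Slc9a3 was followed by Pde9a (r = 0.92), which breaks down cyclic GMP, by Ap1s3 (0.88), and by Tgfa (0.87), a growth factor of the EGF family. Tgfa was also first for Scnn1b (0.84), ahead of Lamb3 (0.82) and Epb41l4b (0.82), and Pde9a was also among those of Scnn1g (0.82), with Tfcp2l1 (0.87) and Zwint (0.83). Pde9a had a log2 fold change of -0.85 with 10% RPS (edgeR adjusted p = 0.0608). Slc26a3 was followed by Slc10a2 (r = 0.93), the apical bile acid transporter, with a log2 fold change of 0.90 (edgeR adjusted p = 0.0641), by Slc39a14 (0.91), a metal ion transporter, and by Clic5 (0.90). Within diets these r were 0.86 for Slc9a3 and Pde9a and 0.88 for Slc26a3 and Slc10a2.

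The remaining tested members were followed by other genes. Scnn1a went with Rhoa, Arpc2, and Hk1 (r = 0.93, 0.93, and 0.93), and Slc12a2 with Trpm7, Efcab14, and Tmem260 (0.92, 0.91, and 0.89). Cftr went with Ecpas, Ubn2, and Ltn1 (0.90, 0.90, and 0.89), and Slc9a2 with Rfk, Pck1, and Micu2 (0.78, 0.78, and 0.77).

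The genes that regulate or accompany the members were taken as 6 lists. Of the regulators of ENaC, 23 were tested and 0 passed with 10% RPS with edgeR, 2 were lower at an unadjusted p under 0.05, and DESeq2 called 1 lower. The median log2 fold change was -0.10. Hsd11b2, the enzyme that keeps glucocorticoids off the mineralocorticoid receptor, had 447 ± 128 CPM (SD, n = 5) with 0%, 348 ± 64.0 with 2%, 309.6 ± 40.2 with 5%, and 294 ± 68.9 with 10% RPS. Its difference from the control was -0.61 on the log2 scale with 10% RPS (SE 0.18, edgeR adjusted p = 0.0763), and it was the gene that DESeq2 called (adjusted p = 0.0234). Sgk1, the kinase through which aldosterone keeps ENaC at the membrane, had a log2 fold change of -0.28 (SE 0.13, edgeR adjusted p = 0.255).

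Of the genes of the basolateral sodium pump and of potassium channels, 9 were tested and 0 passed with edgeR (0 at an unadjusted p under 0.05, 0 with DESeq2), with a median log2 fold change of -0.10. The 2 with the lowest p were the pump's beta subunits Atp1b1 (-0.19, edgeR adjusted p = 0.297) and Atp1b3 (-0.12, edgeR adjusted p = 0.338).

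Of the other sodium/proton exchangers and their scaffolds, 9 were tested and 0 passed with 10% RPS with edgeR and with DESeq2, while 1 was higher and 2 lower at an unadjusted p under 0.05. Nherf2, a scaffold that ties Slc9a3 to its regulators, had 19.5 ± 2.87 CPM (SD, n = 5) with 0%, 17.8 ± 2.55 with 2%, 13.96 ± 1.13 with 5%, and 13.7 ± 2.79 with 10% RPS. The log2 fold change at the highest dose was -0.51 (SE 0.13, edgeR adjusted p = 0.0533). In the trend it passed at -0.053 per percent of RPS (edgeR adjusted p = 0.0488), and the call was lost without any single one of 16 of the 20 mice (adjusted p of 0.00959 to 0.142). In the fits that lost this call 0 to 0.692% of all tested genes passed as lower, and in those that kept it 0.999 to 2.08%. Chp2, a partner protein of the exchangers, had a log2 fold change of -0.23 (edgeR adjusted p = 0.222).

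Of the other chloride and bicarbonate transporters and channels, 20 were tested. With 10% RPS 0 passed as lower with edgeR and with DESeq2, and 3 were lower at an unadjusted p under 0.05. These were Clca1, a secreted protein of goblet cells (log2 fold change -0.53, SE 0.20, edgeR adjusted p = 0.161), Best2, a bestrophin channel (-0.88, SE 0.33, edgeR adjusted p = 0.161), and Slc26a1, a sulfate transporter (-0.67, SE 0.29, edgeR adjusted p = 0.217). Best2 and Slc26a1 were named after their values were seen. Clca1 had 1377 ± 349 CPM (SD, n = 5) with 0%, 1230 ± 250 with 2%, 1669 ± 551 with 5%, and 955 ± 162 CPM with 10% RPS, so its means were not in the order of the dose. The summed goblet markers were 5343 to 7466, 3671.5 to 8315, 4777 to 7119, and 4527 to 5274 CPM over the same diets.

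Of the genes of secretory signaling, 11 were tested and 0 passed with 10% RPS with edgeR and with DESeq2, while 1 was higher and 1 lower at an unadjusted p under 0.05. Guca2a, which encodes guanylin, the peptide that opens Cftr through cyclic GMP, had 2145 ± 324 CPM (SD, n = 5) with 0% and 1729 ± 209 CPM with 10% RPS, with a log2 fold change of -0.31 (SE 0.10, edgeR adjusted p = 0.107). Adora2b, an adenosine receptor that raises cyclic AMP, had 2.88 ± 0.616 and 4.73 ± 1.24 CPM, with a log2 fold change of 0.72 (SE 0.24, edgeR adjusted p = 0.119). In the trend DESeq2 called Adora2b higher and Guca2a lower, beside 2.02 and 2.85% of genes, and edgeR called neither. Of the pumps related to Atp12a, 2 of 3 were in the table and both were below the filter on low counts.

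**Figure D5:**
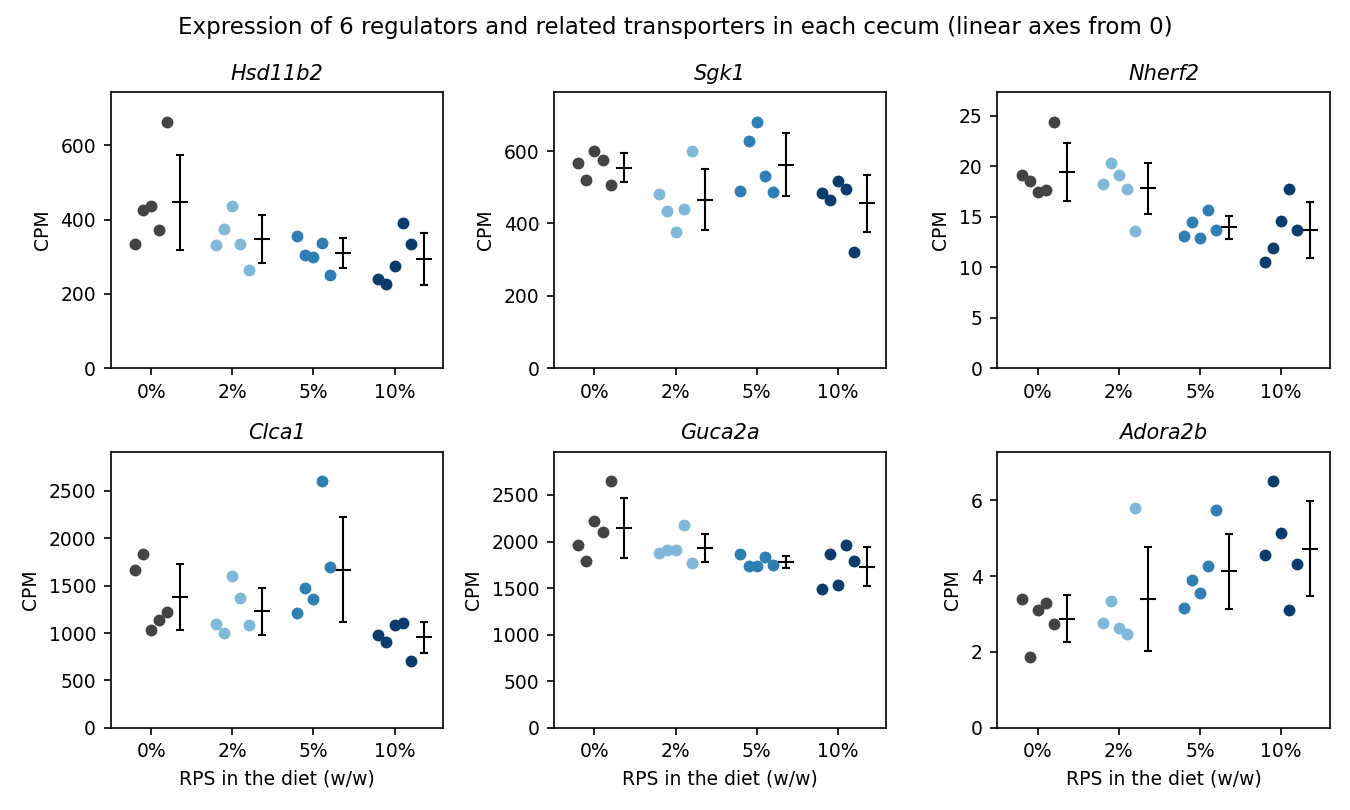
CPM in each mouse (points), with the mean and SD of the 5 mice of a diet beside them, of 6 genes that regulate or accompany the 9 members, on linear axes that start at 0. Hsd11b2 runs from a mean of 447 CPM with 0% to 294 CPM with 10% RPS and Nherf2 from 19.5 to 13.7 CPM, with the means in the order of the dose, while Sgk1 has no such order.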

How the data were processed

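RNASeq of cecum sections was performed on 20 mice, 5 per diet, grouped by the treatment given in the labels. The authors deposited raw read counts per gene, made from stranded, single-end libraries that were trimmed for quality and mapped to GRCm39 in the CLC Genomics Workbench. How multi-mapped reads and strand were handled, and the annotation release, are not given in the sources used here. CPM and RPKM values were computed here from the counts and gene lengths of GENCODE mouse release 39, in which 19827 of 19887 identifiers were found.

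Diets were compared with edgeR 4.0.16 in R 4.3.3 (filterByExpr at its defaults of 10 counts per gene and 15 in total, TMM, robust quasi-likelihood fit of all 4 diets). The 15348 tested genes held 99.98% of counts. Log2 CPM used a prior count of 2. DESeq2 1.42.0, sva 3.50.0, other filters and scalings, marker covariates, and each mouse left out in turn were the alternatives, and those with smooth muscle or B cell markers, the mitochondrial share, or the canonical length were chosen after seeing the data. Fits were tested on simulated data. Within diets, the 40 pairs of mice differed by 14.2 to 143 chi-square units per degree of freedom, so none was 1 library deposited again. Mouse numbers do not pair mice between diets. All p-values are two-sided.

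The members and lists were chosen with earlier results of these data known. Genes named beside the members are those of each list past the threshold against 0% RPS or, where fewer, the 1 or 2 with the lowest p with 10% RPS, and the 3 genes with the highest r with each member. A result on 1 gene of these lists is not reported here.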

Additional observations from a re-analysis of the deposited data

Results flagged for a closer look

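Of the 36 groups of 5 mice (9 genes, 4 diets), 5 had 1 mouse far from the rest by Dixon's ratio of its gap to the range of the group. For independent groups of normally distributed values chance gives about 1 in 20. The groups here share mice over correlated genes, so the count cannot be set against that rate. The highest Scnn1b of the 2% RPS group was in mouse 4 at 1.96 CPM, with the next at 0.876 CPM (ratio 0.773). The highest Scnn1b of the 5% RPS group was in mouse 1 at 1.21 CPM, with the next at 0.381 CPM (ratio 0.846), and the same mouse had the highest Slc9a3 of its diet at 358 CPM, with the next at 202 CPM (ratio 0.736). The highest Slc26a3 of the 2% RPS group was in mouse 5 at 1998 CPM, with the next at 1539 CPM (ratio 0.822). The lowest Slc12a2 of the 0% RPS group was in mouse 5 at 95.2 CPM, with the next at 133 CPM (ratio 0.73), and this mouse is 1 of the 3 with a mitochondrial share above 13%. Causes were not tested.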

How the results depend on the processing

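With DESeq2's Wald test 2 members were lower with 10% RPS, 1 was higher and 1 lower with 5% RPS, and 1 was higher and 2 lower in the trend, and its likelihood ratio test called 2. Without robust empirical Bayes 1 member was lower in the trend (Slc9a3), beside 0.801% of tested genes in that fit. With 1 surrogate variable 1 was higher with 5% RPS (Slc26a3, beside 0.215%), and 1 was higher (Slc26a3, beside 0.665%) and 1 lower (Slc9a3, beside 0.847%) in the trend. The call of Slc26a3 with 10% RPS was lost, leaving 0 members higher, while its log2 fold change stayed at 0.54 to 0.67, in a fit of only the 2 diets compared, with the epithelial or the smooth muscle covariate, and without the 3 mice with a high mitochondrial share. In these fits 0.275, 0.0195, 0, and 1.4% of tested genes were higher, in that order. The causes were not tested. Estimates near 0 changed sign. Over all settings and mice left out, 89 of 648 estimates of Scnn1a, Slc9a2, Slc12a2, and Cftr did so, and 0 of the 648 passed. Examples with the epithelial covariate were Slc12a2 (-0.060) and Cftr (-0.11) with 10% RPS, with the smooth muscle covariate Slc26a3 for 10 against 5% RPS (-0.0020) and Scnn1g for 5 against 2% RPS (0.39), and without the 3 mice Cftr with 10% RPS (-0.084), Slc26a3 for 10 against 5% RPS (-0.077), and the r of Scnn1a and Cftr (0.027). Of the correlations, 3 passed in deviations from the diet means (Scnn1b with Slc9a3, Slc12a2 with Cftr, and Scnn1a with Slc12a2).

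With each mouse left out in turn, 0 to 1 members were higher and 0 to 2 lower with 10% RPS (2 without mouse 4 on 10% RPS, Scnn1g and Slc9a3, beside 0.9% of tested genes in that fit), 0 to 1 lower with 5% RPS (Slc9a3 without mouse 1 on 5% RPS, beside 0.272%), and 0 to 1 higher and 0 to 3 lower in the trend (3 without mouse 4 on 10% RPS). The log2 fold change with 10% RPS ran from -0.058 to 0.074 for Slc9a2 and -0.081 to 0.068 for Cftr. For 5 against 2% RPS it ran from -0.50 to 0.30 for Scnn1g, and for 10 against 5% RPS from -0.54 to 0.54 for Scnn1b, -0.42 to 0.13 for Slc9a3, and -0.12 to 0.10 for Slc26a3. Over the alternatives other than these, the adjusted p with 10% RPS was 0.00678 to 0.149 for Slc26a3, 0.00659 to 0.211 for Scnn1g, 0.00659 to 0.233 for Slc9a3, and 0.0794 to 0.359 for Scnn1b, each in its original direction.

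No paired analysis was possible because the mouse numbers do not pair mice across diets. Scnn1b, Scnn1g, and Atp12a rest on few counts, which limits their precision.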
